A study of Mus musculus with 8 samples.

Results

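The oxidative phosphorylation genes encode the subunits of the mitochondrial respiratory chain, complexes I to IV, and of ATP synthase, complex V. They were taken here as every probe set with 1 gene symbol that begins with Nduf, Uqcr, Atp5 or Cox4 to Cox8, or that is Sdha, Sdhb, Sdhc, Sdhd, Cyc1 or Atpif1. The rule found 159 probe sets for 86 genes, among 22626 tested probe sets that name 12393 genes. Complex I had 67 probe sets for 33 genes, its assembly factors named Ndufaf 6 for 5, complex II 7 for 4, complex III 16 for 9, complex IV 33 for 17 and complex V 30 for 18. Ndufa4 was counted with complex IV, of which its protein is now regarded as a subunit. Another 8 probe sets whose annotation joins a symbol of the rule with other genes were not used.

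The study measured RNA of whole skin from newborn FVB mice on Affymetrix arrays in 4 genotypes of 2 related proteins, the retinoblastoma protein pRb (gene Rb1) and p107 (gene Rbl1). The genotypes were pRb-/-;p107-/-, called double mutant below, pRb-/-;p107+/+, pRb+/+;p107-/- and pRb+/+, with 2 arrays each, and RNA of 3 animals of 1 genotype was combined for an array. No other treatment, allele or age is named, and the p107 genotype of the pRb+/+ arrays, taken here as wild-type, is not in their titles. Loss or absence of pRb or p107 below means the labelled genotype, since protein was not measured. The labels give neither the promoter of any Cre nor the skin cells in which pRb was deleted, and they do not say whether duplicate arrays held separate pools, so the p-values measure the spread between duplicates, which may be technical. In a bulk sample, fewer cells of a type and less RNA per cell cannot be told apart.

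Each deposited value was a score standardized within its probe set, so a difference of 1 equals the SD of its 8 scores. Scores show the order and the separation of arrays, and hold no RNA level, signal over background or fold change. The marker genes of skin are therefore no check that the tissue expresses them. Rb1 scored -1.56 and -1.28 in double mutant skin, -0.22 and 0.36 in pRb-/-;p107+/+ skin, 0.02 and 0.4 for pRb+/+;p107-/- and 1.21 and 1.07 for pRb+/+. Within each p107 status the pRb-/- arrays had the lower Rb1 scores, although the pRb-/-;p107+/+ and pRb+/+;p107-/- pairs overlapped. The first Rbl1 probe set scored -0.31 and 0.31 in double mutant skin, 1.3 and 1.14 in pRb-/-;p107+/+ skin, -1.51 and -1.22 for pRb+/+;p107-/- and 0.08 and 0.21 for pRb+/+. The p107-/- arrays thus lay lowest for Rbl1 within each pRb status, although the double mutant arrays overlapped pRb+/+ skin. The position of these probes against the deleted sequence was not used here. The 24 spiked poly-A control probe sets, which measure no mouse gene, averaged -0.91 and -0.96 in double mutant skin, 1.38 and 1.13 in pRb-/-;p107+/+ skin, -0.57 and -0.55 for pRb+/+;p107-/- and 0.3 and 0.19 for pRb+/+. The p107-/- arrays were low in these controls, and the double mutant pair lowest, as in many oxidative phosphorylation probe sets. The 18 hybridization control probe sets averaged -0.64 and -0.32 in double mutant skin and -0.8 and -0.71 for pRb+/+;p107-/-, below all other arrays. They averaged 0.09 and -0.03 in pRb-/-;p107+/+ skin, and 0.37 and 2.05 in pRb+/+ skin, whose replicates 1 and 2 thus lay far apart. The 3 beta-actin control probe sets were lowest in double mutant skin, at -1.0 and -1.08. In pRb+/+ skin they lay at 0.3 and -0.86. The 3 of Gapdh were lowest in pRb+/+ skin, at -1.47 and -1.52. The part of such array differences in the results was not tested.

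Complex I takes electrons from NADH and complex II, which is also the succinate dehydrogenase of the citrate cycle, takes them from succinate. Both pass them through ubiquinone to complex III, and cytochrome c carries them to complex IV, which reduces oxygen. Complexes I, III and IV pump protons, and complex V uses the gradient to make ATP. In skin the tissues known for abundant mitochondria are the subcutaneous muscle layer and, in newborn mice, brown fat, where the uncoupling protein Ucp1 turns the gradient into heat. E2F factors, which pRb and p107 bind and restrain, have been reported to act on some genes of oxidative metabolism in muscle and brown fat.

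The oxidative phosphorylation genes lay lowest in double mutant skin. In 72 of the 159 probe sets both double mutant arrays were below the 6 other arrays, which is 45.3%, against 11.4% of all tested probe sets. Both were above the 6 others in 4, which is 2.52%, against 6.95% of all. Those 4 were a probe set each of Atpif1, Ndufa4, Ndufaf4 and Ndufv1. The mean score of all members was -0.55 and -0.95 on the double mutant arrays, 0.42 and 0.18 on the pRb-/-;p107+/+ arrays, 0.14 and 0.04 for pRb+/+;p107-/- and 0.22 and 0.5 for pRb+/+. With 1 probe set per gene the mean was -0.45 and -0.9 on the double mutant arrays, 0.29 and 0.16 on the pRb-/-;p107+/+ arrays, 0.27 and 0.16 for pRb+/+;p107-/- and 0.03 and 0.44 for pRb+/+. The double mutant pair was lowest in both means. The order of the other genotypes depends on the count, since their pairs overlapped by gene. Over all tested probe sets the 8 array means lay between -0.18 and 0.22.

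**Figure D1:**
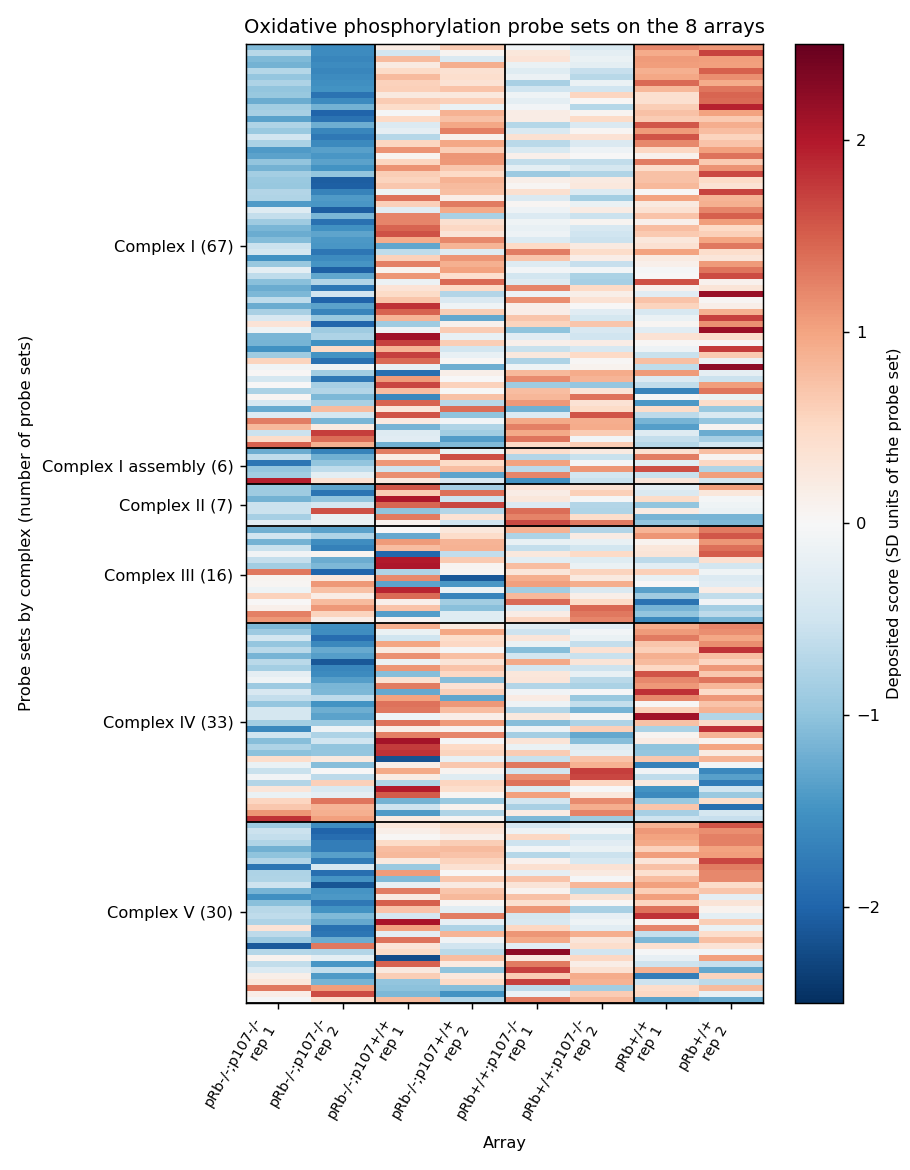
Deposited scores (colour, SD units of each probe set) of the 159 probe sets (rows, grouped by complex and sorted within a complex by the difference for loss of both) on the 8 arrays (columns, 2 per genotype). Most rows of complexes I, IV and V are blue in the 2 leftmost columns, double mutant skin, and complex III is mixed.

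The comparison of pRb-/-;p107-/- with pRb+/+ skin asks what differed when both genes were mutant. Here 10 of the 159 probe sets passed an adjusted p of 0.05 in limma's linear model, 10 lower and 0 higher, which is 6.29%. Of all tested probe sets 2.94% passed in either direction, 1.54% lower and 1.41% higher. The called probe sets belong to Ndufa13, Ndufb5, Ndufb10, Ndufc1 and Ndufs8 of complex I, Cox5b (2 probe sets) and Cox8b of complex IV, and Atp5e and Atp5j2 of complex V. The difference was negative in 125 probe sets (78.6%, against 47.7% of all), and its median was -1.59, against 0.1 over all. Counted by 1 probe set per gene, 66 of 86 genes were negative, with a median of -1.3 against 0.14 over all 12393 genes, and 5 genes fell, Atp5e, Atp5j2, Cox8b, Ndufa13 and Ndufb10 (1.6% of all genes were called lower and 1.29% higher). At an unadjusted p below 0.05, 73 probe sets differed (45.9%, against 22.3% of all), 66 lower (11.5% of all) and 7 higher (10.8% of all). The calls rest on every array and on the test: leaving out any 1 array left 0 or 1 member called, and limma's moderated test called 0. The moderated statistic, unlike the one used, depends on the standardization of the scores, and a fit without 1 array has fewer residual degrees of freedom. The lost calls are therefore not read as a trait of these genes. The number of negative probe sets was 120 to 127 without any 1 array.

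The comparison of pRb-/-;p107-/- with pRb-/-;p107+/+ skin asks what p107 loss adds where pRb is absent. Here 6 probe sets passed, which is 3.77%, against 1.37% of all tested. They were 4 lower, against 0.822% of all, and 2 higher, against 0.548%. The split was 1 lower and 1 higher with array medians subtracted and 4 and 1 after quantile normalization, and 0 were called without any 1 array or by the moderated test. Atp5e, Cox5b, Cox8b and Ndufs8 fell, and a probe set each of Atpif1 and Ndufv1 rose. The difference was negative in 132 probe sets (83.0%, against 52.7% of all), with a median of -1.48 against -0.1 over all. By gene 68 of 86 were negative (79.1%, against 51.1%), with a median of -1.29 against -0.05 over all genes. There 2 genes were called lower (0.815% of all genes) and 1 higher (0.629%). This comparison, pRb loss in p107-/- skin and loss of both share the double mutant arrays, so they are not independent of each other. Both double mutant arrays were below both pRb-/-;p107+/+ arrays in 102 probe sets, which is 64.2%, against 28.2% of all. At an unadjusted p below 0.05, 67 members differed (42.1%, against 19.2% of all).

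In the other pairwise comparisons 0 members passed limma's adjusted threshold. For pRb loss in p107-/- skin, set against pRb+/+;p107-/- skin, 0.256% of all tested probe sets passed, and 37 members had an unadjusted p below 0.05 (23.3%, against 12.0% of all). There 137 members were negative (86.2%, against 62.6%), with a median of -0.94 against -0.33 over all. Both double mutant arrays were below both pRb+/+;p107-/- arrays in 104 (65.4%, against 33.7%). For p107 loss in pRb+/+ skin, 0.42% of all passed, and 40 members had an unadjusted p below 0.05 (25.2%, against 19.4%). The difference was negative in 105 members (66.0%, against 41.2%), with a median of -0.56 against 0.35 over all. By gene 49 of 86 were negative, and the median was -0.21 against 0.4 over all genes. For pRb loss where p107 was kept, 0.0% of all passed, 13 members had an unadjusted p below 0.05 (8.18%, against 13.4%), and the median was -0.13 against 0.12 over all. By gene the median for pRb loss where p107 was kept was 0.11, against 0.1 over all genes.

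The comparisons of p107 loss with pRb absent and with pRb present share no array, so they can be set side by side. Of the 159 members, 98 were negative in both (61.6%, against 27.5% of all probe sets). The comparisons of pRb loss with p107 absent and with p107 present share no array either, and 80 members were negative in both (50.3%, against 29.1%). Where p107 was kept, 90 members were negative (56.6%, against 46.3%), and by gene 42 of 86 (48.8%, against 46.6%). The 80 are therefore not read as an effect of pRb loss shared by both p107 statuses. The interaction, the difference between the effects of pRb loss in p107-/- skin and where p107 was kept, passed the adjusted threshold in 0 members and in 0.0% of all. At an unadjusted p below 0.05, 28 members had an interaction (17.6%, against 13.1% of all), 25 of them negative (8.76% of all). At any p, 125 of the 159 were negative (78.6%, against 59.9% of all), but 94 with array medians subtracted. An F test over the 4 genotypes passed for 4 probe sets, of Atp5e, Atpif1, Cox5b and Cox8b (2.52%, against 1.28% of all).

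**Figure D2:**
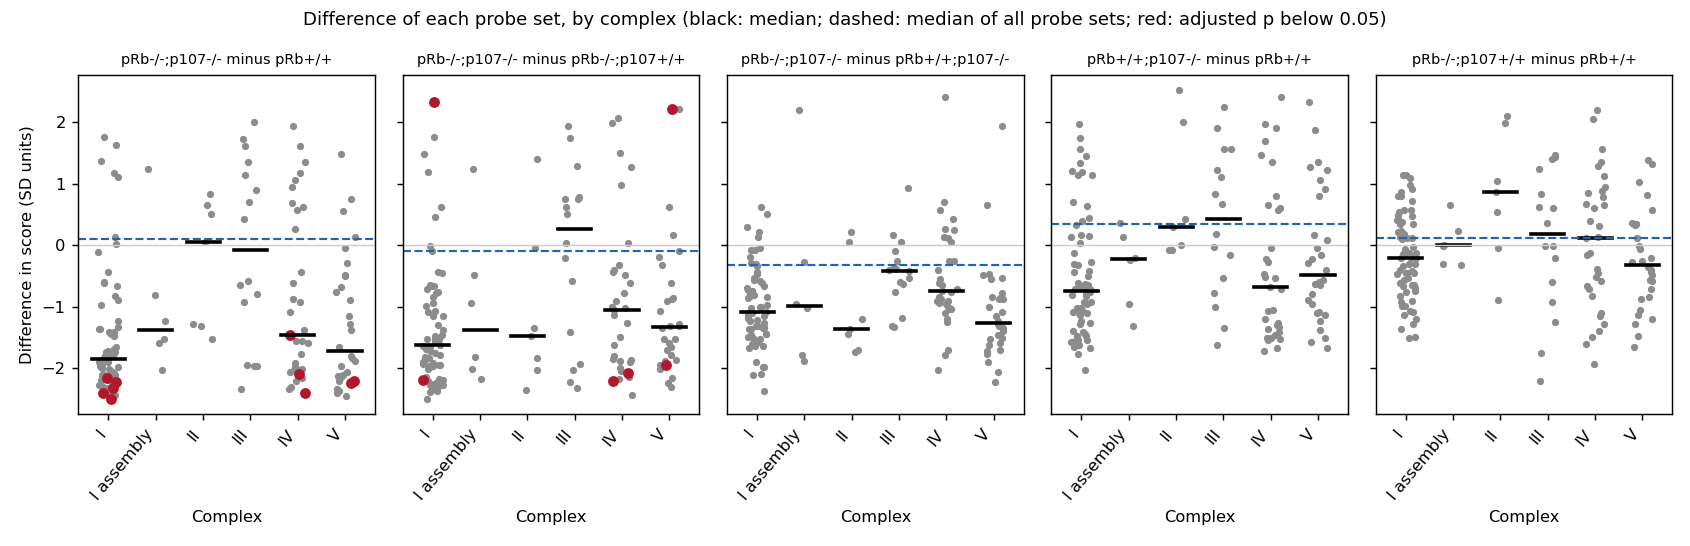
Difference in score (SD units, vertical axis) of each probe set (points) by complex in 5 comparisons, with the complex median (black), the median of all tested probe sets (dashed) and called probe sets in red. In the first panel, loss of both, the medians of complexes I and V lie at -1.85 and -1.72 and those of complexes II and III at 0.06 and -0.08, whereas with 1 probe set per gene they are -1.73 (I), -1.22 (V), -1.3 (II) and -0.58 (III).

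The complexes are described in turn, by probe set unless a count by gene is named, and differences between them were not tested. Complex I, with the most probe sets, was among the lowest in double mutant skin. Its median difference for loss of both was -1.85, with 60 of 67 probe sets negative (47.7% of all tested) and 5 called lower (1.54% of all). By gene the median was -1.73, with 29 of 33 negative (46.7% of all genes). With p107 lost in pRb-/- skin the median by probe set was -1.63, with 61 negative (52.7% of all tested). There 1 was called lower (0.822% of all) and 1 called higher (0.548%). The mean score of complex I was -0.69 and -1.21 on the double mutant arrays, 0.46 and 0.29 on the pRb-/-;p107+/+ arrays, 0.06 and -0.01 for pRb+/+;p107-/- and 0.32 and 0.77 for pRb+/+. Both double mutant arrays were below the 6 others in 38 of its 67 probe sets. In a grouping by role and name, made after the values were seen, they were so in 9 of 16 probe sets of the nuclear-encoded catalytic core. They were also so in 15 of 24 of the Ndufa accessory subunits, counted with Ndufab1. For the Ndufb and Ndufc accessory subunits of the membrane arm the count was 12 of 22. The share of all tested probe sets was 11.4%. Ndufs4, Ndufs5 and Ndufv3 are in none of these groups.

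Ndufs8 encodes a core subunit that binds iron-sulfur clusters on the path to ubiquinone. Its called probe set (1434213_x_at) scored -1.33 and -1.84 in double mutant skin, 0.49 and 0.74 in pRb-/-;p107+/+ skin, 0.18 and 0.48 for pRb+/+;p107-/- and 0.64 and 0.65 for pRb+/+. The double mutant pair was lowest, and the pRb-/-;p107+/+ and pRb+/+ pairs overlapped. The difference was -2.19 ± 0.23 (SE, 2 arrays per genotype, limma adjusted p = 0.0494) for p107 loss in pRb-/- skin and -2.23 ± 0.23 (adjusted p = 0.0377) for loss of both. The other 5 Ndufs8 probe sets did not pass. All 6 were negative for p107 loss in pRb-/- skin, with differences of -2.31 to -1.07, and 5 of 6 were negative for loss of both.

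Ndufb5, Ndufb10 and Ndufc1 encode accessory subunits of the membrane arm that pumps protons. Ndufb5 (1417102_a_at) scored -1.11 and -1.58 in double mutant skin, 0.21 and 0.63 in pRb-/-;p107+/+ skin, -0.08 and -0.38 for pRb+/+;p107-/- and 1.21 and 1.11 for pRb+/+. The single mutants lay between the extremes without overlapping either. Its difference for loss of both was -2.5 ± 0.25 (limma adjusted p = 0.0372). Ndufc1 (1448284_a_at) and Ndufb10 had the same order of genotypes, with differences for loss of both of -2.41 ± 0.28 (adjusted p = 0.0444) and -2.32 ± 0.26 (adjusted p = 0.0421).

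Ndufa13, also known as GRIM-19, encodes an accessory subunit that was first described as a cell death regulator. It scored -1.42 and -1.36 in double mutant skin, 1.13 and 0.61 in pRb-/-;p107+/+ skin, -0.39 and -0.12 for pRb+/+;p107-/- and 0.51 and 1.03 for pRb+/+. The 2 genotypes that kept p107 overlapped, and the double mutant arrays were lowest. Its difference was -2.16 ± 0.28 for loss of both (limma adjusted p = 0.0499), and -2.26 ± 0.28 for p107 loss in pRb-/- skin, which did not pass (adjusted p = 0.0614).

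Ndufv1, the core subunit that binds NADH, had probe sets of opposite sign. The called one (1415966_a_at) scored 1.47 and 0.89 in double mutant skin, -1.21 and -1.11 in pRb-/-;p107+/+ skin, 0.5 and 0.63 for pRb+/+;p107-/- and -0.71 and -0.46 for pRb+/+. All 4 p107-/- arrays were above all 4 others. Its difference for p107 loss in pRb-/- skin was 2.34 ± 0.23 (limma adjusted p = 0.0475), whereas the other Ndufv1 probe sets gave -0.99 and -0.46 and did not pass. The direction of Ndufv1 therefore depends on the probe set. The assembly factors named Ndufaf had a median of -1.38 for loss of both, with 5 of 6 probe sets negative (47.7% of all tested) and 0 called. Ndufaf3 gave -2.03 ± 0.56 (adjusted p = 0.153).

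Complex II has 4 nuclear-encoded subunits, and 0 of its 7 probe sets passed in any comparison. For p107 loss in pRb-/- skin 6 of 7 were negative (52.7% of all tested), with a median of -1.48. For loss of both 3 of 7 were negative (47.7% of all), with a median of 0.06. By gene 3 of 4 were negative for loss of both, with a median of -1.3, so the direction of complex II in that comparison depends on the probe sets counted. Sdha, the flavoprotein subunit that oxidizes succinate, scored -0.88 and -1.82 in double mutant skin, 0.64 and 1.37 in pRb-/-;p107+/+ skin, 0.19 and 0.59 for pRb+/+;p107-/- and -0.37 and 0.28 for pRb+/+, by the probe set 1426688_at. By this probe set the double mutant pair was lowest and the pRb-/-;p107+/+ pair highest, with a difference for p107 loss in pRb-/- skin of -2.36 ± 0.5 (limma adjusted p = 0.128). The second Sdha probe set (1426689_s_at) scored -0.54 and -0.42 in double mutant skin, within the range of -0.99 and -0.1 in pRb+/+ skin, and gave 0.06 for loss of both against -1.31 by the first. Sdhd, a membrane anchor (1428235_at), had another order, highest in pRb+/+;p107-/- skin at 1.66 and 1.29, with -0.99 and -1.12 in pRb+/+ skin. That difference of 2.53 ± 0.24 did not pass (adjusted p = 0.0627), and the second Sdhd probe set overlapped between these genotypes.

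Complex III gave members with no common direction. For loss of both 8 of its 16 probe sets were negative, near the 47.7% of all tested, with a median of -0.08. For p107 loss in pRb-/- skin 7 of 16 were negative (52.7% of all), with a median of 0.27. By gene 5 of 9 were negative for loss of both, with a median of -0.58. Uqcr11, a small accessory subunit, scored -1.18 and -1.56 in double mutant skin, 1.07 and 0.85 in pRb-/-;p107+/+ skin, -0.18 and -0.19 for pRb+/+;p107-/- and 0.08 and 1.11 for pRb+/+. The double mutant pair was lowest, and the difference of -1.97 ± 0.39 for loss of both did not pass (limma adjusted p = 0.0951). Uqcrfs1, the Rieske iron-sulfur protein of the catalytic core, scored 1.09 and 0.17 in double mutant skin, 0.05 and -0.31 in pRb-/-;p107+/+ skin, 0.54 and 1.23 for pRb+/+;p107-/- and -1.59 and -1.17 for pRb+/+. Here pRb+/+ skin was the lowest, and the difference for loss of both was 2.01 ± 0.45 (adjusted p = 0.112). Cyc1, cytochrome c1 of the same core, gave -1.97 ± 0.73 (adjusted p = 0.232). The probe sets of 1 gene also disagreed here: the 4 of Uqcrq differed by -2.04 to 1.95 for p107 loss in pRb-/- skin.

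**Figure D3:**
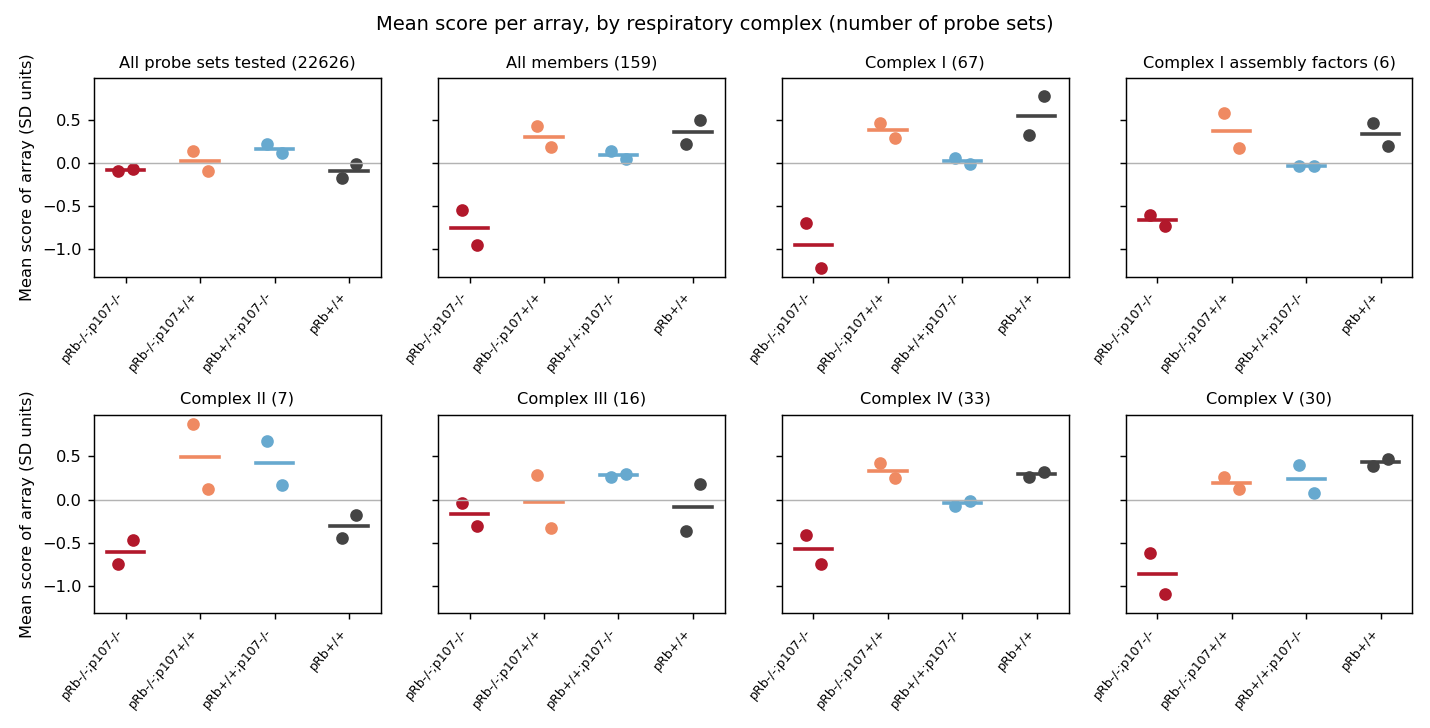
Mean score per array (points, SD units) with the mean of the 2 arrays of each genotype (lines), for all tested probe sets, all members and each complex. The double mutant arrays are lowest for all members at -0.55 and -0.95, and in complex III they lie within the range of the pRb-/-;p107+/+ pair.

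Complex IV had a median difference of -1.47 for loss of both, with 23 of 33 probe sets negative (47.7% of all tested) and 3 called lower (1.54%). By gene the median was -0.43, with 9 of 17 negative (52.9%, against 46.7% of all genes) and 1 called lower (1.6%). Cox5b has 6 of the 33 probe sets, and the count by gene uses 1436149_at, its only positive one for loss of both. For p107 loss in pRb-/- skin the median by probe set was -1.06, with 27 negative (52.7% of all tested) and 2 called lower (0.822%). Cox5b, a nuclear-encoded subunit on the matrix side, supplied 2 of the called probe sets. The first (1456588_x_at) scored -1.16 and -1.37 in double mutant skin, 1.14 and 0.76 in pRb-/-;p107+/+ skin, -0.46 and -0.56 for pRb+/+;p107-/- and 0.89 and 0.76 for pRb+/+. All 4 p107-/- arrays were below all 4 others, and the double mutant pair was lowest. Its difference was -2.22 ± 0.16 for p107 loss in pRb-/- skin (limma adjusted p = 0.032) and -2.09 ± 0.16 for loss of both (adjusted p = 0.0236). The second (1435613_x_at) gave -2.41 ± 0.29 for loss of both (adjusted p = 0.0454). Of the 6 Cox5b probe sets 5 were negative for loss of both, and 1436149_at gave 1.62 ± 0.46 (adjusted p = 0.16).

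Several complex IV subunits exist as a ubiquitous form and a form of heart and skeletal muscle, and in rodents also of brown fat. Cox8b, a form of heart, muscle and brown fat, scored -0.85 and -0.91 in double mutant skin, 1.35 and 1.06 in pRb-/-;p107+/+ skin, -1.07 and -0.78 for pRb+/+;p107-/- and 0.74 and 0.46 for pRb+/+. The arrays split by p107 status without overlap, and the 4 p107-/- arrays overlapped each other. It fell by 2.08 ± 0.18 for p107 loss in pRb-/- skin (limma adjusted p = 0.0384) and by 1.47 ± 0.18 for loss of both (adjusted p = 0.0454), and its difference of -1.52 ± 0.18 for p107 loss in pRb+/+ skin did not pass (adjusted p = 0.0726). Its ubiquitous partner Cox8a gave -1.03 ± 0.7 for p107 loss in pRb-/- skin (adjusted p = 0.501), and with pRb present it gave 1.97 ± 0.7 (adjusted p = 0.252).

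Cox7a1, the muscle and brown fat form of its subunit, scored -0.5 and -0.77 in double mutant skin, 1.26 and 1.23 in pRb-/-;p107+/+ skin, -0.84 and -1.28 for pRb+/+;p107-/- and 0.07 and 0.84 for pRb+/+. It also split by p107 status, and its difference of -1.88 ± 0.33 for p107 loss in pRb-/- skin did not pass (limma adjusted p = 0.102). Its ubiquitous partner Cox7a2 had nearly the same difference, -1.87 ± 0.38 (adjusted p = 0.123). Cox6a2, the muscle form of Cox6a1, scored 0.3 and -0.38 in double mutant skin, 1.99 and 0.44 in pRb-/-;p107+/+ skin, -0.35 and -0.01 for pRb+/+;p107-/- and -1.5 and -0.49 for pRb+/+. It was thus highest in pRb-/-;p107+/+ skin and lowest in pRb+/+ skin, an order in which the muscle creatine kinase Ckm also lay. For p107 loss in pRb-/- skin Cox6a2 gave -1.26 ± 0.71 and Cox6a1 -1.14 ± 0.65, and for loss of both they gave 0.95 ± 0.71 and -2.31 ± 0.65, none of which passed (limma adjusted p = 0.158 for the last). Cox4i2, a form known from lung and for induction by low oxygen, gave 1.99 ± 0.81 for p107 loss in pRb-/- skin (adjusted p = 0.303), and its partner Cox4i1 gave -1.49 ± 0.59 (adjusted p = 0.289).

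Ndufa4 went against most of the group. It scored 1.8 and 1.03 in double mutant skin, 0.23 and 0.04 in pRb-/-;p107+/+ skin, -1.13 and -0.89 for pRb+/+;p107-/- and -0.51 and -0.57 for pRb+/+. Both pRb-/- pairs were above both pRb+/+ pairs, and the 4 pairs did not overlap. Its difference of 1.95 ± 0.29 for loss of both did not pass (limma adjusted p = 0.0619).

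**Figure D4:**
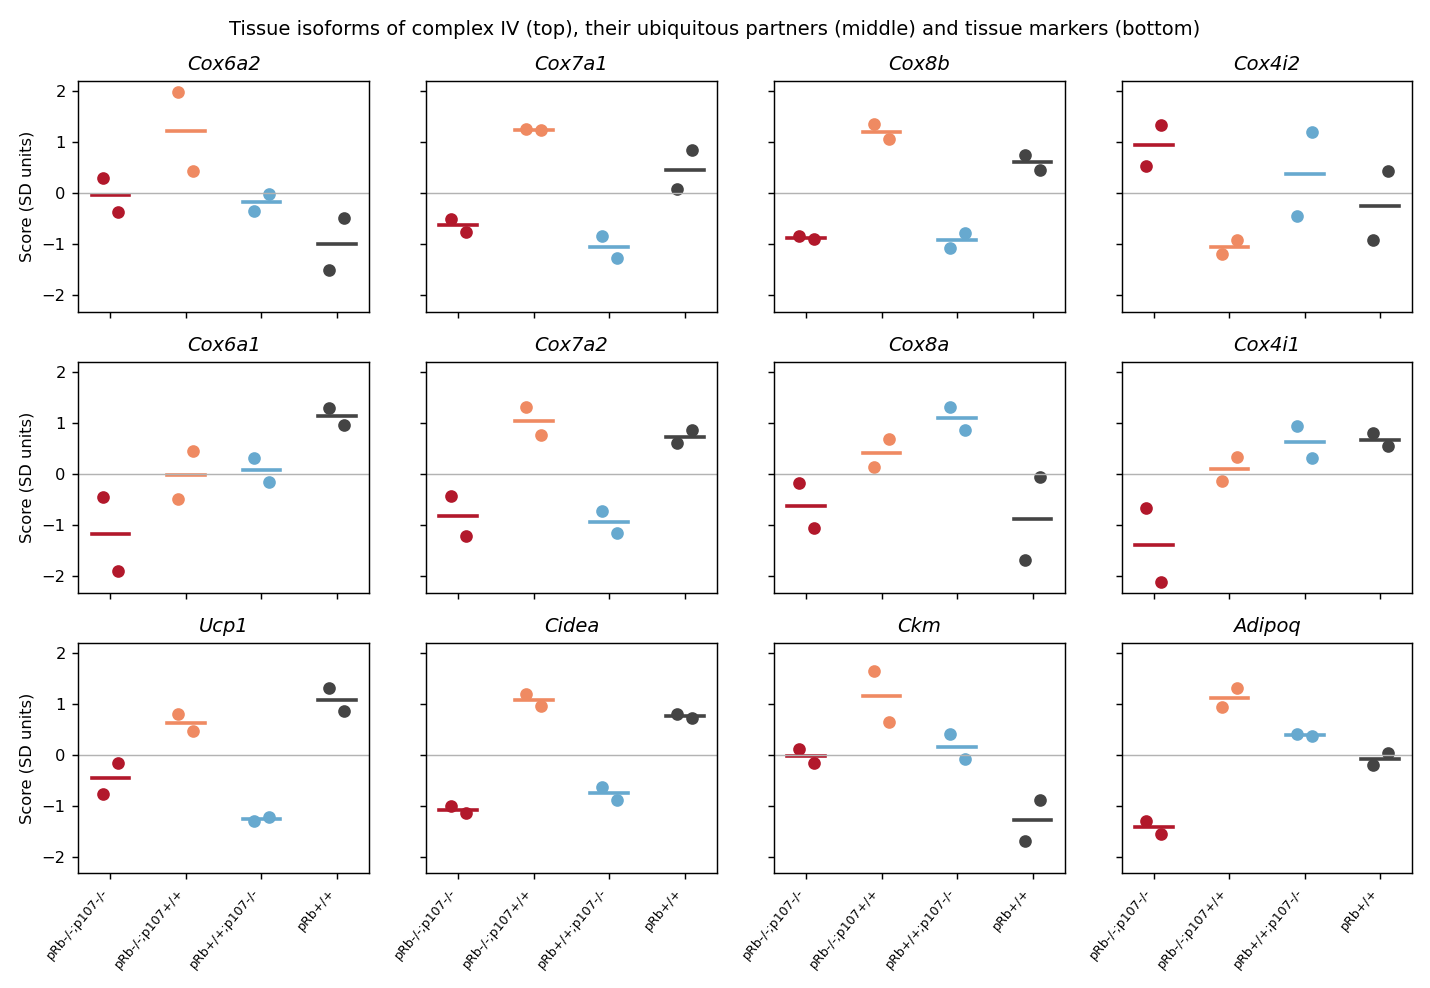
Scores (SD units) on the 2 arrays of each genotype (points, with their mean as a line) for tissue isoforms of complex IV (top), their ubiquitous partners (middle) and tissue markers (bottom). Cox7a1, Cox8b, Cox7a2, Ucp1 and Cidea are below 0 on all 4 p107-/- arrays and above 0 on the 4 others, and Cox6a2 and Ckm are highest in pRb-/-;p107+/+ skin.

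Complex V had a median difference of -1.72 for loss of both, with 26 of 30 probe sets negative (47.7% of all tested) and 2 called lower (1.54%). By gene the median was -1.22, with 15 of 18 negative (46.7% of all genes). Atp5e, the epsilon subunit of the central stalk, had the smallest adjusted p among the members for loss of both. It scored -1.0 and -1.36 in double mutant skin, 0.81 and 0.72 in pRb-/-;p107+/+ skin, -0.72 and -0.53 for pRb+/+;p107-/- and 1.05 and 1.04 for pRb+/+. The 4 pairs of arrays did not overlap, and both p107-/- pairs were below both others. It fell by 2.22 ± 0.15 for loss of both (limma adjusted p = 0.0195) and by 1.95 ± 0.15 for p107 loss in pRb-/- skin (adjusted p = 0.0331). The difference for p107 loss in pRb+/+ skin was -1.67 ± 0.15 and did not pass (adjusted p = 0.06).

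Atp5j2, a subunit of the membrane part, scored -1.2 and -1.72 in double mutant skin, 0.77 and 0.8 in pRb-/-;p107+/+ skin, -0.07 and -0.16 for pRb+/+;p107-/- and 0.57 and 1.01 for pRb+/+, by the probe set 1416269_at. The pRb-/-;p107+/+ pair lay within the range of the pRb+/+ pair. It fell by 2.25 ± 0.25 for loss of both (limma adjusted p = 0.041). In a grouping made after the values were seen, all 15 probe sets of the membrane and peripheral stalk subunits outside the c ring were negative for loss of both, with a median of -1.97 and 1 called lower. The 9 of the catalytic head and central stalk had 6 negative and a median of -1.28. Of all tested probe sets 47.7% were negative and 1.54% called lower. Atp5g1, Atp5g2 and Atp5g3, which encode the same c subunit of the rotating ring, gave -1.16 ± 0.67, -0.04 ± 0.99 and -0.49 ± 0.66 and did not pass. Atp5b, the catalytic beta subunit, gave 0.14 ± 0.79 (adjusted p = 0.939).

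Atpif1, a protein that inhibits ATP hydrolysis by complex V, had 2 probe sets of opposite sign. The first (1434198_at) scored 1.32 and 1.04 in double mutant skin, -1.02 and -1.06 in pRb-/-;p107+/+ skin, -0.65 and -0.87 for pRb+/+;p107-/- and 0.44 and 0.79 for pRb+/+. Both single mutants lay below pRb+/+ skin and the double mutant pair above it. Its difference for p107 loss in pRb-/- skin was 2.22 ± 0.18 (limma adjusted p = 0.0348), and its interaction of 3.6 ± 0.25 did not pass (adjusted p = 0.0766). The second (1448770_a_at) gave -1.65 for the same comparison and did not pass, so no direction is given for Atpif1 as a gene. Across the 46 genes with at least 2 probe sets, all probe sets were negative for loss of both in 27, all were positive in 3, and 16 had mixed signs.

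The type of probe set moved with the differences. For loss of both, the 77 members whose names end in plain _at had a median of -0.87, against 0.18 for all such probe sets tested. The medians were -2.01 for the 39 members with _a_at, -1.85 for the 17 with _s_at and -1.94 for the 26 with _x_at, against 0.15, -0.31 and -0.75 over all tested. The suffixes _s_at and _x_at mark probes that can bind transcripts of other genes. Of the 10 called for loss of both, Atp5j2 and Cox8b rest on plain _at probe sets. Those of Ndufb5, Ndufb10 and Ndufc1 are _a_at, and the others are _s_at or _x_at. Whether cross-binding has a part in the differences was not tested.

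Promoters are shown for 5 called genes, of which Atp5e, Ndufs8 and Ndufb5 lay lowest together in double mutant skin, Atpif1 had a probe set of the opposite direction and Cox8b is a tissue isoform. NRF1, ETS-family GABP and YY1 are factors known to bind promoters of respiratory chain genes. The windows, from RefSeq on GRCm38.p6, run from 250 bases before to 50 bases after the start of a gene, and 71 of the 86 genes had one. The sequences read 5′ to 3′ on the strand of the gene, and capitals mark a match, on either strand, to CGCANGCGC for NRF1, CCGGAAG for ETS factors or AANATGGC for YY1.
Atp5e promoter, GRCm38.p6 chr2:174464052-174464351, minus strand: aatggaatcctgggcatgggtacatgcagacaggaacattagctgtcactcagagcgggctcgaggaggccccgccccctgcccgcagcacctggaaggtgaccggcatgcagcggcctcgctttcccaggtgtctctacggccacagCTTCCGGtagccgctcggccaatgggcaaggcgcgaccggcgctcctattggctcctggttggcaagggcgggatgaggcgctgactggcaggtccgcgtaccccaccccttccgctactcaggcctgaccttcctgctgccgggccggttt
Ndufs8 promoter, GRCm38.p6 chr19:3912725-3913024, minus strand: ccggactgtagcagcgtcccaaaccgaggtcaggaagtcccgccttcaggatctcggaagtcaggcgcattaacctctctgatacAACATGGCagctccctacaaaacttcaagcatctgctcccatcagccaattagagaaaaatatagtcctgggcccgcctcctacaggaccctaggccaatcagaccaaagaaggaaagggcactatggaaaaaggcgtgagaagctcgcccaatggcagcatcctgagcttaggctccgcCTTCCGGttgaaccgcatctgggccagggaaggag
Ndufb5 promoter, GRCm38.p6 chr3:32736813-32737112, plus strand: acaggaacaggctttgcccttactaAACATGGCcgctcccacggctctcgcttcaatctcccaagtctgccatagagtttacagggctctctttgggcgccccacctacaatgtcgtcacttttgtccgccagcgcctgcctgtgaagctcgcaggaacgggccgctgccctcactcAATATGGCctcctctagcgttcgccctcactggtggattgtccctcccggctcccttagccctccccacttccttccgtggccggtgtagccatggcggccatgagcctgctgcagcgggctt
Atpif1 promoter, GRCm38.p6 chr4:132535365-132535664, minus strand: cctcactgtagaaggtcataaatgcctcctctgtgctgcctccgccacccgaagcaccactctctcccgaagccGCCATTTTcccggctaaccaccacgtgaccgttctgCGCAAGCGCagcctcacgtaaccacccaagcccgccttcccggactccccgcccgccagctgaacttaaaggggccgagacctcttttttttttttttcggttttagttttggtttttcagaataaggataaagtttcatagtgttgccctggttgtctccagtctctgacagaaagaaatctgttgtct
Cox8b promoter, GRCm38.p6 chr7:140900397-140900696, minus strand: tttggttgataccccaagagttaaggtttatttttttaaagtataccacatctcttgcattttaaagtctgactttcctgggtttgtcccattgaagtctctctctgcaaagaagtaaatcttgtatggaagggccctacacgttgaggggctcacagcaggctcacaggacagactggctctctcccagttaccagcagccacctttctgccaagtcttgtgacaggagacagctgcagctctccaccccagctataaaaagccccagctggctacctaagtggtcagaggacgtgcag

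The Atp5e window holds an ETS match, Ndufs8 an ETS and a YY1 match, Ndufb5 a pair of YY1 matches, Atpif1 an NRF1 and a YY1 match, and Cox8b none. Of the 76 windows of the member genes, 32.9% held the NRF1 letters, against 6.31% of 32851 windows of all genes and 10.7% of the windows of genes on the array. The ETS letters were in 23.7%, against 8.86% and 14.0%, and the YY1 letters in 22.4%, against 6.05% and 7.02%. In the case of an E2F site, TTTCCCGC or TTTGGCGC on either strand, the shares were 2.63%, against 1.56% and 2.47%. The 48 genes with any of the first 3 motifs had a median difference of -1.3 for loss of both, and the 23 without had -1.16. A match is a run of letters, and binding was not measured.

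The rest of mitochondrial metabolism was read from lists of genes, by 1 probe set per gene. Of the 12 citrate cycle genes measured, all 12 were negative for p107 loss in pRb-/- skin, with a median of -1.92 against -0.05 over all genes, and 0 passed limma's adjusted threshold. At an unadjusted p below 0.05, 7 of the 12 were lower, against 10.6% of all genes. For loss of both 10 of 12 were negative, with a median of -1.2 against 0.14 over all genes. Of 17 genes of mitochondrial fatty acid oxidation 16 were negative for p107 loss in pRb-/- skin, with a median of -1.76 and 0 called, 7 of them lower at an unadjusted p below 0.05. In both lists the median had the opposite sign for pRb loss where p107 was kept, at 0.83 and 0.73 against 0.1 over all genes.

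The factors that assemble the complexes, with cytochrome c, had 31 measured genes and a median of -0.84 for loss of both. Of these, 1 was called lower (1.6% of all genes) and 0 higher (1.29% of all genes). That gene was Sdhaf4, a chaperone for Sdha in the assembly of complex II. It scored -1.15 and -1.54 in double mutant skin, 0.22 and 0.39 in pRb-/-;p107+/+ skin, -0.11 and -0.26 for pRb+/+;p107-/- and 1.19 and 1.26 for pRb+/+. The pairs did not overlap, and it fell by 2.57 ± 0.16 for loss of both (limma adjusted p = 0.0181) and by 1.65 ± 0.16 for p107 loss in pRb-/- skin (adjusted p = 0.0443). Among 8 genes of pyruvate dehydrogenase and its kinases 1 was called, against 1.29% of all genes called higher for loss of both. It was Pdk4, a kinase that inhibits the enzyme. It rose by 1.62 ± 0.17 for loss of both (adjusted p = 0.0405) and by 2.6 ± 0.17 for pRb loss in p107-/- skin (adjusted p = 0.0486).

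Of 17 regulators of mitochondrial biogenesis 0 were called in any comparison. Ppargc1a, a coactivator of oxidative phosphorylation genes that is abundant in brown fat and muscle, scored -1.08 and -1.07 in double mutant skin, -0.1 and 0.46 in pRb-/-;p107+/+ skin, -0.11 and -0.83 for pRb+/+;p107-/- and 1.52 and 1.21 for pRb+/+. Every mutant pair was below the pRb+/+ pair, and the difference of -2.44 ± 0.34 for loss of both did not pass (limma adjusted p = 0.0553). Nrf1 gave 1.08 ± 1.14 and Tfam, the packaging factor of mitochondrial DNA, -0.87 ± 0.91, and neither passed. Cycs, cytochrome c itself, gave -1.94 ± 0.47 for p107 loss in pRb-/- skin (adjusted p = 0.153).

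Markers of adipocytes, skeletal muscle, brown adipocytes, fibroblasts and keratinocytes were read beside the oxidative phosphorylation genes. The mean of 13 adipocyte genes was -0.58 and -0.76 in double mutant skin, 0.99 and 0.75 in pRb-/-;p107+/+ skin, 0.19 and 0.23 for pRb+/+;p107-/- and -0.54 and -0.27 for pRb+/+. In the comparison of p107 loss in pRb-/- skin 11 of the 13 were negative, against 51.1% of all genes, and 2 fell, against 0.815% of all genes. Adipoq, the adipokine adiponectin, fell by 2.54 ± 0.18 (limma adjusted p = 0.0313), and Pck1, an enzyme of glycerol synthesis in fat, fell by 2.54 ± 0.23 (adjusted p = 0.0429). When both were lost 8 of 13 were negative, against 46.7% of all genes, and 0 were called. The mean was low in pRb+/+ skin as in double mutant skin, unlike that of the oxidative phosphorylation genes.

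The mean of 25 skeletal muscle genes was -0.2 and -0.49 in double mutant skin, 0.74 and 0.63 in pRb-/-;p107+/+ skin, -0.01 and -0.13 for pRb+/+;p107-/- and -0.6 and 0.07 for pRb+/+. In this list 4 fell (0.815% of all genes) and 1 rose (0.629%) for p107 loss in pRb-/- skin, with 19 of 25 negative (51.1% of all). With both proteins lost 2 fell (1.6% of all genes), with 14 of 25 negative (46.7% of all). Its members Eno3 and Pgam2 are also counted with glycolysis. Ckmt2, the mitochondrial creatine kinase of muscle, fell by 2.23 ± 0.12 for p107 loss in pRb-/- skin (limma adjusted p = 0.0228), whereas Tnni1, the slow muscle troponin I, rose by 1.46 ± 0.14 (adjusted p = 0.0438). The muscle mean for double mutant skin lay within the range of the pRb+/+ pair, unlike the mean of the oxidative phosphorylation genes.

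The brown adipocyte list shares Ppargc1a and Ucp1 with other lists. The mean of its 8 measured genes was -0.28 and -0.46 in double mutant skin, -0.16 and 0.28 in pRb-/-;p107+/+ skin, -0.43 and -0.64 for pRb+/+;p107-/- and 1.05 and 0.65 for pRb+/+. It was highest in pRb+/+ skin and did not put double mutant skin below pRb+/+;p107-/- skin. For p107 loss in pRb-/- skin 4 of the 8 were negative (51.1% of all genes), with a median of -0.48 and 1 called lower (0.815% of all). With both proteins lost 7 of 8 were negative (46.7% of all genes), with a median of -1.42 and 2 called lower (1.6% of all). Cidea, a lipid droplet protein of brown fat, fell by 1.83 ± 0.13 for loss of both (limma adjusted p = 0.0222) and by 2.15 ± 0.13 for p107 loss in pRb-/- skin (adjusted p = 0.0247). Elovl3, a fatty acid elongase of brown fat and sebaceous glands, fell by 1.95 ± 0.23 for loss of both (adjusted p = 0.0438). Ucp1 scored -0.76 and -0.16 in double mutant skin, 0.8 and 0.46 in pRb-/-;p107+/+ skin, -1.29 and -1.21 for pRb+/+;p107-/- and 1.3 and 0.86 for pRb+/+, split by p107 status like Cox8b and Cox7a1. The mean of 10 fibroblast genes was -0.73 and -1.35 in double mutant skin, 0.38 and 0.29 in pRb-/-;p107+/+ skin, 1.04 and 0.68 for pRb+/+;p107-/- and -0.19 and -0.13 for pRb+/+. The mean of 11 keratinocyte genes was 0.68 and 0.39 in double mutant skin, -0.85 and -0.32 in pRb-/-;p107+/+ skin, 0.63 and 0.38 for pRb+/+;p107-/- and -0.43 and -0.49 for pRb+/+. In the comparison of double mutant with pRb+/+ skin 8 of the 10 fibroblast genes were negative with 1 called lower, and 2 of the 11 keratinocyte genes with 0 called. Over all genes 46.7% were negative and 1.6% were called lower. For p107 loss in pRb-/- skin all 10 fibroblast genes were negative, with a median of -1.35 and 1 called lower (51.1% and 0.815% of all genes). All 10 were also negative for pRb loss in p107-/- skin, with a median of -2.09 and 1 called lower. There 62.6% of all genes were negative and 12 of 12393 called lower. Of the 11 keratinocyte genes 3 and 4 were negative in these 2 comparisons, with 0 called. Fibroblast genes were thus lowest on the arrays where the oxidative phosphorylation genes were lowest. Adipocyte genes were lowest there too, at -0.58 and -0.76, close to the -0.54 of a pRb+/+ array. The skeletal muscle mean was -0.35 in double mutant skin and -0.27 in pRb+/+ skin. Keratinocyte genes were high on the double mutant arrays, as on the pRb+/+;p107-/- arrays. The part of the cell mixture in these differences was not tested.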

How the data were processed

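The probe sets were scored by the authors: the deposited value is a score of mean 0 and SD 1 over the 8 arrays for each of 22690 probe sets, as the values themselves show. The submitters' processing notes name RMA, without a version. No source used here says whether log or linear values were standardized. A score over 8 values cannot exceed 2.47. The number of arrays limits the precision.

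Groups came from the sample titles. Genes came from the platform annotation, and for counts by gene 1 probe set stood for each, preferring _at, then _a_at, _s_at and _x_at, then the lowest number. After 64 array controls were left out, a linear model with 1 coefficient per genotype was fitted to 22626 probe sets with limma 3.58.1 in R 4.3.3. The unmoderated statistic, with 4 residual degrees of freedom, does not depend on the standardization. The Benjamini-Hochberg adjustment ran over all 22626, with a threshold of 0.05. The fit was tested on simulated data. Alternatives were the moderated test, quantile normalization, subtraction of array medians, a replicate block, only _at probe sets, the mean of the probe sets of a gene, and each array left out. The members and lists were chosen with earlier results of these data known. Members named are all that passed, the extremes of each complex, and fixed isoform pairs; other genes come from the lists.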

Additional observations from a re-analysis of the deposited data

Results flagged for a closer look

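The mean score of complex II moved opposite ways according to the other gene. For pRb loss the difference of its array means was -1.03 in p107-/- skin and 0.8 where p107 was kept. For p107 loss it was -1.1 in pRb-/- skin and 0.73 in pRb+/+ skin. In each case all arrays of one comparison moved one way and all of the other the opposite way. By gene the complex II median for p107 loss in pRb+/+ skin was 0.18, against 0.4 over all genes. Sdhd gave 2.53, Sdha 0.43, and Sdhb and Sdhc -0.07 each. The difference between the effects was not tested for the mean, and 0 of the 7 complex II probe sets passed the interaction test of limma's linear model. At an unadjusted p below 0.05, 4 had a negative interaction, against 8.76% of all tested probe sets.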

How the results depend on the processing

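The counts of called members rest on the choice of test and on every array. The moderated statistic depends on the standardization of the scores, and a fit without 1 array has fewer residual degrees of freedom. How far the lost calls come from these 2 limits was not tested. For p107 loss in pRb-/- skin, loss of both and the F test, with 6, 10 and 4 members called, limma's moderated test called 0, 0 and 0, and the replicate block 0, 0 and 0. The block used numbers in the titles that do not establish pairing: the deviations of same-numbered arrays correlated between -0.131 and 0.105. With array medians subtracted 2 members were called for p107 loss in pRb-/- skin and 0 by the F test; only _at probe sets gave 2, 2 and 0. After quantile normalization 6 were called for loss of both, 1 (Sdhd, higher) for p107 loss in pRb+/+ skin and 1 (Atpif1, higher) for pRb loss in p107-/- skin. Without any 1 array the counts lay between 0 and 1 for loss of both, with the call in Cox5b and only without either pRb-/-;p107+/+ array, and at 0 for the other comparisons.

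No called difference reversed. In p107 loss in pRb+/+ skin the median of all tested probe sets was 0.04 with array medians subtracted and 0.35 as deposited, and that of the member probe sets -0.88 and -0.56. The median over genes for p107 loss in pRb+/+ skin was -0.52 with array medians subtracted and -0.44 with the mean of a gene's probe sets, and -0.36 to -0.1 without any 1 array. For pRb loss in p107-/- skin it was -1.16 as deposited, -0.89 after quantile normalization and -0.88 with array medians subtracted (-1.38 to -0.86 without any 1 array). There the median of member probe sets went from -0.94 to -0.65 and -0.66, and that of all tested from -0.33 to -0.07 and -0.05. For loss of both the median over genes was -1.3 as deposited and -0.89 with only _at probe sets (-1.5 to -0.95 without any 1 array). For the interaction it was -1.04 as deposited, against -0.44 over all genes. It was -0.64 after quantile normalization, -0.58 with array medians subtracted and -0.82 with the mean of probe sets (-1.32 to -0.81 without any 1 array). With array medians subtracted the interaction median of member probe sets went from -0.72 to -0.26, and that of all tested from -0.44 to 0.02. Without any 1 array the median over genes was -1.73 to -0.94 for p107 loss in pRb-/- skin. For pRb loss where p107 was kept it changed sign, at -0.15 to 0.27. The cause was not tested. A filter on dim probe sets was not run, since scores hold no signal over background.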

Other observations

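The proteins of the mitochondrial ribosome, which make the mitochondrially encoded subunits of the complexes, were measured by 74 genes. For loss of both 55 of the 74 were negative, with a median of -0.71 against 0.14 over all genes, with 1 called higher (1.29% of all genes) and 0 lower. That gene, Mrps2 of the small subunit, rose by 1.84 ± 0.14 for loss of both (limma adjusted p = 0.0236), 1.51 ± 0.14 for p107 loss in pRb-/- skin (adjusted p = 0.0443) and 2.15 ± 0.14 for p107 loss in pRb+/+ skin (adjusted p = 0.0446). Mrpl58, a peptidyl-tRNA hydrolase of the large subunit, fell by 2.45 ± 0.26 for p107 loss in pRb-/- skin (adjusted p = 0.0499).

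Glycolysis genes had no common direction, with 6 of 16 negative for loss of both, a median of 0.77 and 2 called lower, against 46.7% negative, a median of 0.14 and 1.6% called lower over all genes. Ldhb, the heart form of lactate dehydrogenase, fell by 2.37 ± 0.18 (limma adjusted p = 0.0236), and Pgam2, the muscle form of phosphoglycerate mutase, fell by 1.33 ± 0.16 (adjusted p = 0.0445). In the comparison of p107 loss in pRb-/- skin 3 fell (0.815% of all genes), Ldhb, Pgam2 and Eno3. Eno3, the muscle enolase, fell by 1.98 ± 0.08 (adjusted p = 0.0188).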
